A study of Mus musculus with 14 samples.

Results

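The Notch pathway was examined through 10 genes taken by name, the receptors Notch1, Notch2, Notch3 and Notch4, the ligands Dll1, Jag1 and Jag2, and the target genes Hes1, Hey1 and Heyl. All 10 were among the 16124 genes of the deposited table, so every member could be followed in every mouse. RNA had been sequenced from mammary epithelial cells (MECs) of females aged 3.5 months, with 1 library per mouse, from 7 wild-type (WT) mice and their 7 Usp22 OE/OE littermates. The pairs carried the numbers 1, 3, 4, 5, 6, 7 and 8. OE/OE mice carry, on both copies of the ROSA26 locus, a FLAG- and MYC-tagged mouse Usp22 cDNA under the CAGGS promoter. Its STOP cassette had been removed by Zp3-Cre, so that the gene is overexpressed in all tissues and not in the epithelium alone. The labels call these mice USP22 OE and their controls wild-type, with no transgene named for the latter. Each count given here is a normalized count, the fragments counted on a gene divided by the size factor of the library.

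The libraries held between 20125106 and 41835978 fragments, with the WT mice of pairs 1 and 8 the shallowest (20125106 and 22632805). Usp22 lay between 3500 and 5380 normalized counts in WT and between 74948 and 144288 in OE/OE, so every library matched its genotype. The cells had been enriched by pelleting epithelial organoids, without a sort on a marker. Scores of marker lists, each the mean log2(normalized count + 1) of its genes, were 14.3 ± 0.20 for 10 pan-epithelial genes and 13.1 ± 0.43 for 10 fibroblast genes in WT (SD, n = 7). The score of 14 endothelial genes was 12.0 ± 0.22 and that of 10 genes of mural cells, the contractile cells around vessels, 9.26 ± 0.33 (SD, n = 7 WT mice). No marker of these lists was at 0 in any library. In such bulk RNA, fewer cells of a type and less RNA per cell cannot be told apart.

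Notch receptors are single-pass membrane proteins that are bound by a Delta-like or Jagged ligand on a neighbouring cell. Binding leads to cleavage by an ADAM protease and by gamma-secretase, and the freed intracellular domain joins RBPJ and a Mastermind protein in the nucleus to activate genes of the Hes and Hey families, which encode repressors. In the mammary gland the pathway is known for its part in luminal fate, with Notch3 used by luminal progenitors and Dll1 and Jag1 made by basal cells. Notch1, Notch4 and Hey1 are also used by endothelial cells, and Notch3 and Heyl by mural cells.

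The receptor genes are shown first through the sequence before their start sites. The counts of the receptors were also correlated across the libraries, and no link between the 2 was tested. Pearson's r over the 14 libraries on the log2 scale was 0.90 between Notch1 and Notch4, 0.90 between Notch1 and Notch2, and 0.88 between Notch3 and Notch4. The smallest value among the receptors was 0.76, between Notch2 and Notch4, with a Spearman's rho of 0.48. Without pair 4 these values were 0.77, 0.76, 0.87 and 0.49. They describe the libraries and carry no test, since littermates share a litter and a cell preparation mixes cell types. RefSeq gave a start site window for 7 of the 10 members (GRCm38.p6), and Hes1, Hey1 and Heyl are not shown. For the 4 receptors, the part of the window before any annotated exon is given 5′ to 3′, with GC boxes (GGGCGG on either strand) in capitals. That of Jag1 is not printed, and the windows of Dll1 and Jag2 begin within an annotated exon.
Notch1, chr2:26503825-26504072, minus strand: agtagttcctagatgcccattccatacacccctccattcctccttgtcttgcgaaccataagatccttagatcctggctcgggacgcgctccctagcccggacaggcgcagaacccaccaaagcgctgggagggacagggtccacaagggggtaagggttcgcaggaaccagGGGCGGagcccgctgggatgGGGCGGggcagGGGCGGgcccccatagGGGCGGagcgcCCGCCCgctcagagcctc
Notch2, chr3:98013288-98013526, plus strand: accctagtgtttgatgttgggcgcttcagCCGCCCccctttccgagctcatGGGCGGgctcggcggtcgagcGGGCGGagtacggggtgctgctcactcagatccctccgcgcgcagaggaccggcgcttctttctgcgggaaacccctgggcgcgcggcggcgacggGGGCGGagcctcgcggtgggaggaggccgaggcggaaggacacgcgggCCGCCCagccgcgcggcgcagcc
Notch3, chr17:32166891-32167140, minus strand: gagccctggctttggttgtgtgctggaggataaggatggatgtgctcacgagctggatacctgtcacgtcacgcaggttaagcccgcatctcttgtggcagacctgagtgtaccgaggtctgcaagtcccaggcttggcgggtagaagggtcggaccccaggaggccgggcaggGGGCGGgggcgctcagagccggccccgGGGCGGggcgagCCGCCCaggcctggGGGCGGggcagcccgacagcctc
Notch4, chr17:34564045-34564267, plus strand: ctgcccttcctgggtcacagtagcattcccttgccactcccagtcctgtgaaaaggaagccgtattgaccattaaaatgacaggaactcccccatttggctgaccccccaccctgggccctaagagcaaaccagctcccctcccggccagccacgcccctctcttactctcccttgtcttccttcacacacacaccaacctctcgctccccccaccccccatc
GC boxes, the short motif bound by SP1-like factors, were found 5 times before Notch1, 5 times before Notch2 and 4 times before Notch3. Notch4 had 0. The window of Notch4 also held fewer CpG, 4 in 250 bases against 16, 34 and 17 before Notch1, Notch2 and Notch3. Before the ligands there were 54 (Jag2), 20 (Jag1), and 21 and 13 (windows of Dll1). The median over all RefSeq windows was 6. Of these windows 37.8% held fewer CpG than that of Notch4, and 74.6, 96.5 and 76.5% fewer than those of Notch1, Notch2 and Notch3. Among all 32851 windows of 250 bases, 32.7% held a GC box. The core letters bound by RBPJ (TGGGAA on either strand) were absent from the windows of all 7 members and present in 21.6% of all windows. The N-box of HES proteins (CACNAG on either strand) was found once before Notch1, once before Notch2 and 2 times before Notch3, and in 36.7% of all windows. These are matches of letters and no measure of binding, and their part in the counts was not tested.

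Levels were compared between genes per kb of exon. Hes1, the repressor most widely used as a Notch target, and Notch3 were the most abundant members in WT, with medians of 1576 and 1517 normalized counts per kb. The range over the 7 WT mice was 1181 to 1927 for Hes1 and 1044 to 2456 for Notch3, and the 2 genes could not be ordered (mean log2 difference 0.01 ± 0.46, SD, n = 7 mice; exact sign-flip p = 0.953, two-sided). Dll1, Jag1 and Notch1 followed with medians of 749.6, 685 and 636 per kb. Neighbours among these 3 did not differ beyond their spread (exact sign-flip p = 0.797 and 0.328). Notch3 stood above Dll1 in all 7 mice, by 1.05 ± 0.54 on the log2 scale (SD, n = 7), and the exact sign-flip p was 0.0156, the least possible with 7 mice. Notch2 came next at 308 per kb, below Notch1 in all 7 mice and above Hey1 in all 7 (exact sign-flip p = 0.0156 for each).
Hey1 (242 per kb) and Jag2 (220 per kb) were not distinguished in WT (exact sign-flip p = 0.578). Heyl was lower than Jag2 in all 7 mice, at 141 per kb (exact sign-flip p = 0.0156), and Notch4 was the least abundant member at 86.5 per kb, below Heyl in 6 of 7 mice (exact sign-flip p = 0.0312). The members thus covered an 18.2-fold range. Hes1 had a higher level per kb than 93.8% of all genes and Notch4 than 42.0%. In OE/OE mice the same genes took the same ranks by median, except that Notch3 came before Hes1 and Jag2 before Hey1. With the longest transcript in place of all exons, Notch1 moved ahead of Dll1 and Hey1 ahead of Notch2.

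**Figure D1:**
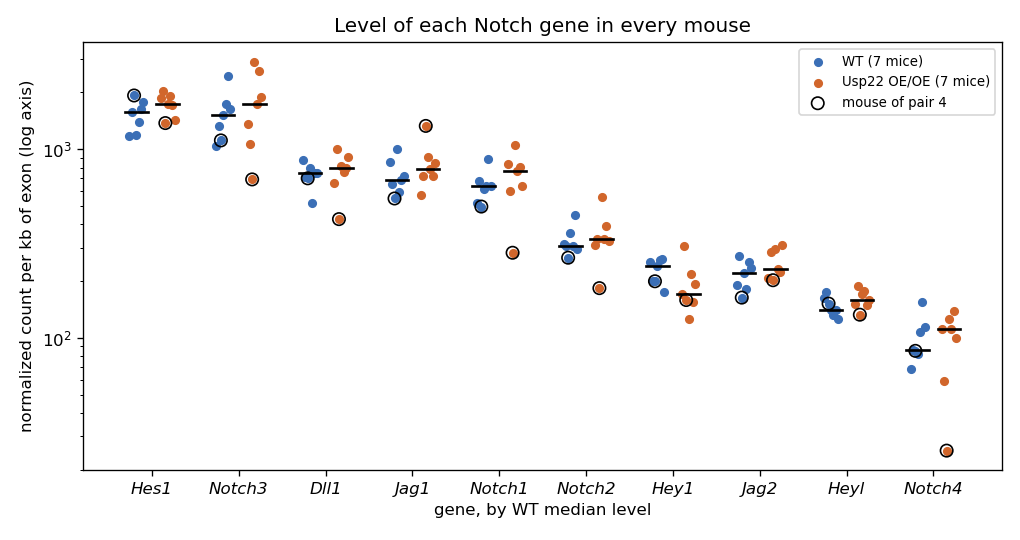
Level of each of the 10 genes in every mouse, in normalized counts per kb of exon on a log axis, with WT in blue, OE/OE in orange, medians as bars and the mice of pair 4 circled. The points of both genotypes overlap for every gene, and the OE/OE mouse of pair 4 is the lowest of all 14 for the 4 receptors and Dll1 and the highest for Jag1.

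The receptor mixture was led by Notch3 in every mouse. Notch3 made up 53.6 to 62.3% of the summed receptor level per kb in WT (median 59.0%) and 51.7 to 66.0% in OE/OE (median 58.9%). Notch1 held a median of 24.0% in WT and 23.9% in OE/OE, Notch2 12.8% and 11.9%, and Notch4 3.83% and 3.40%. These shares rest on the length of all exons and were not computed with the longest transcript. For Notch1 the 2 lengths are 14232 and 9488 bases, for Notch3 8089 and 8016, so the share of Notch1 is the more affected. Among the 3 ligands, Dll1 and Jag1 had similar shares by the length of all exons, with medians of 44.0% and 42.3% in WT. Jag2 held 13.7% in WT and 14.2% in OE/OE. The ligand mixture of 1 mouse was unlike all others. In the OE/OE mouse of pair 4, Jag1 made up 67.9% and Dll1 21.8% of the summed ligands, whereas Dll1 did not fall below 39.4% in any WT mouse.

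**Figure D2:**
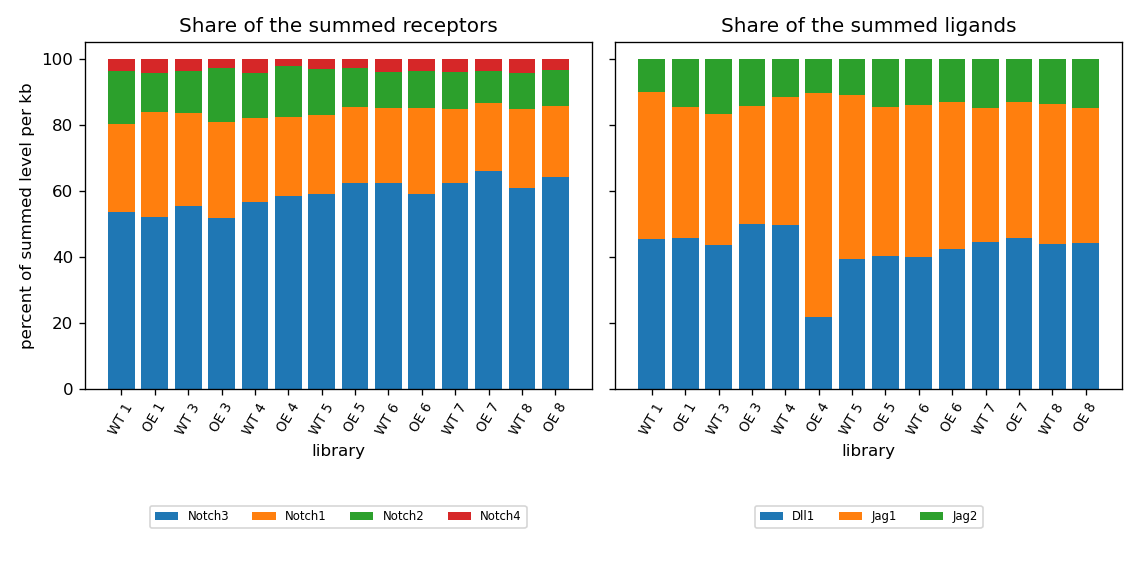
Share of each receptor (left) and each ligand (right) in the summed level per kb of all exons, in percent, for the 14 libraries ordered by pair. Notch3 holds the largest receptor share in every library, and the bar of the OE/OE mouse of pair 4 stands out among the ligands by its Jag1 share of 67.9%.

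Whether Usp22 overexpression moved these genes was asked within littermate pairs, with limma on log2(normalized count + 1) and the pair as a block. At an unadjusted p of 0.05 or less, the threshold of the study's methods, 1 of the 10 members was called, Jag2, which was higher in OE/OE. Over all 16124 genes 3.81% were called at this threshold, 1.95% as higher and 1.85% as lower. None of the members had a limma adjusted p under 0.05 (0.0124% of all genes, 2 in number), and none had the same sign in all 7 pairs (1.51% of all genes). In each of the 10 genes the ranges of WT and OE/OE mice overlapped. The share of all genes that overlap was not computed, so this is not read as a trait of the members. The log2 fold changes lay between -0.30 and 0.22, with a median of 0.09 against 0.00 over all genes, 8 of them above 0 and 2 below. Among the marker lists, the pan-epithelial score was higher in OE/OE in 6 of 7 pairs (14.3 ± 0.20 against 14.4 ± 0.23, SD, n = 7; exact sign-flip p = 0.0625). The adipocyte score was lower in 6 of 7 pairs (8.39 ± 0.56 against 7.77 ± 0.72, SD, n = 7; exact sign-flip p = 0.0781) and the fibroblast score in 5 of 7 (exact sign-flip p = 0.0938). With the adipocyte score as a covariate, Notch1 (0.44), Notch4 (0.38) and Hes1 (0.47) were called higher and Jag1 (-0.22) lower, and Jag2 was not called (limma unadjusted p = 0.00959, 0.0384, 0.00171, 0.0247 and 0.147). In that fit 17.0% of all genes were called.

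**Figure D3:**
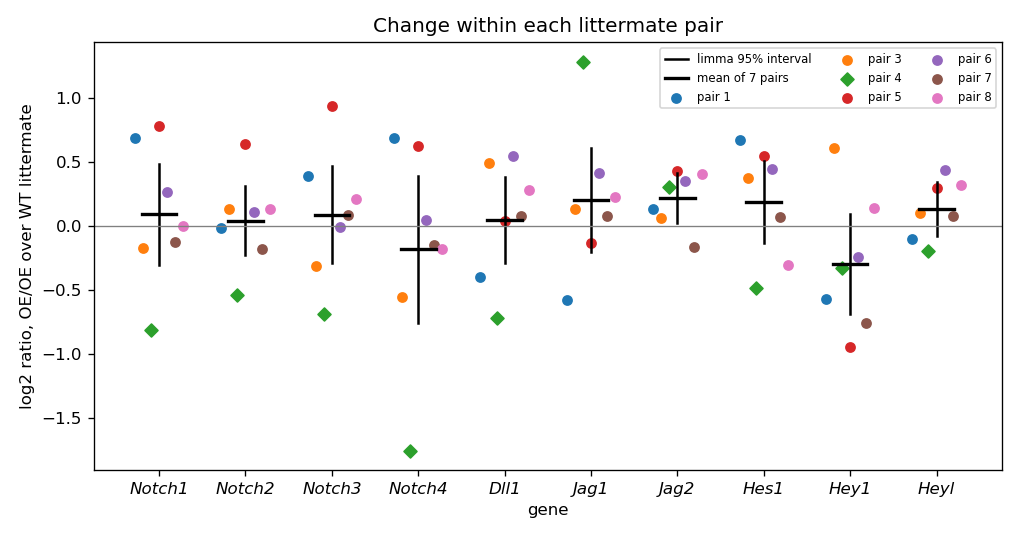
Log2 ratio of OE/OE over the WT littermate for each of the 10 genes in each of the 7 pairs (coloured points, pair 4 as green diamonds), with the mean and the limma 95% interval in black. The interval leaves out 0 for Jag2 alone, and pair 4 is the lowest pair for all 4 receptors and the highest for Jag1.

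Of the ligands, Jag2, a membrane-bound Jagged ligand, had between 1138 and 1897 normalized counts in WT (median 1534) and between 1407 and 2151 in OE/OE (median 1618). The ranges overlapped over most of their length. The log2 fold change was 0.22 (SE 0.09, 95% interval 0.02 to 0.41), with a limma unadjusted p of 0.0315 and an adjusted p of 1.00. Jag2 was higher in 6 of 7 pairs, by 0.06 to 0.43 on the log2 scale, and lower in pair 7, by -0.17. By exact sign flips the two-sided p was 0.0625. The call was lost without pair 4, 5, 6 or 8 (limma unadjusted p = 0.0510, 0.0804, 0.0823 and 0.0864) and without the pair as a block (limma unadjusted p = 0.147), while the fold change stayed between 0.16 and 0.28 under all 23 alternatives.
Jag1, the other Jagged ligand, ran from 3193 to 5841 normalized counts in WT (median 3993) and from 3340 to 7746 in OE/OE (median 4597). Its log2 fold change was 0.20 with a 95% interval of -0.20 to 0.60 (limma unadjusted p = 0.292). The single pair 4 carried most of this difference, with a log2 ratio of 1.28 against -0.57 to 0.41 in the other pairs, and without it the value was 0.02. Dll1, the Delta-like ligand of basal cells, ran from 2179 to 3687 in WT (median 3162) and from 1797 to 4223 in OE/OE (median 3342). Its log2 fold change was 0.04 with a 95% interval of -0.29 to 0.38 (limma unadjusted p = 0.780), and 0.17 without pair 4. Both genes were higher in 5 of 7 pairs.

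The receptors did not pass the threshold. Notch1 had between 7067 and 12556 normalized counts in WT (median 9045) and between 4021 and 15064 in OE/OE (median 10925). Its log2 fold change was 0.09, with a 95% interval of -0.30 to 0.48 (limma unadjusted p = 0.625), and the OE/OE mice were both the lowest and the highest of the series. Notch2 ran from 2867 to 4810 in WT (median 3325) and from 1978 to 6010 in OE/OE (median 3584), with a log2 fold change of 0.04 (95% interval -0.23 to 0.31, limma unadjusted p = 0.749). Notch3, the main receptor here by level, ran from 8442 to 19865 in WT (median 12275) and from 5595 to 23511 in OE/OE (median 14062). Its log2 fold change was 0.09 (95% interval -0.29 to 0.46, limma unadjusted p = 0.612). These 3 receptors were each higher in 4 of 7 pairs. Notch4, a receptor best known from endothelium, ran from 554 to 1248 in WT (median 698) and from 203 to 1123 in OE/OE (median 893). Its log2 fold change of -0.18 (95% interval -0.76 to 0.39, limma unadjusted p = 0.490) rested on pair 4, at -1.75, and was 0.08 without it. The interval was narrowest for Notch2 and widest for Notch4.

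The target genes gave no common direction. Hes1 ran from 2406 to 3926 normalized counts in WT (median 3210) and from 2803 to 4163 in OE/OE (median 3539). It was higher in 5 of 7 pairs, with a log2 fold change of 0.19 (95% interval -0.14 to 0.51, limma unadjusted p = 0.225). Without pair 4 the value was 0.30 (SE 0.12, limma unadjusted p = 0.0348), in a fit that called 1366 genes over all. Heyl, a relative of Hey1 used by mural cells and others, ran from 647 to 892 in WT (median 722) and from 678 to 957 in OE/OE (median 808). It had a log2 fold change of 0.13 (95% interval -0.08 to 0.34, limma unadjusted p = 0.187) and was higher in 5 of 7 pairs. Hey1 pointed the other way, from 572 to 851 in WT (median 789) and from 410 to 999.7 in OE/OE (median 557). Its log2 fold change was -0.30, the largest in size of the 10, with a 95% interval of -0.69 to 0.09 (limma unadjusted p = 0.115), and it was lower in 5 of 7 pairs. Only in pairs 3 and 8 was Hey1 higher, by 0.61 and 0.14 on the log2 scale, and without pair 3 its log2 fold change was -0.45 (limma unadjusted p = 0.0134, with 477 genes called over all).

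Pair 4 differed more than the other pairs over the genome, with an SD of 0.93 for the log2 ratios of 13230 genes with a mean of at least 50 normalized counts, against 0.29 to 0.56 in the other pairs. In it 8 of the 10 members were lower in the OE/OE mouse, among them all 4 receptors, and the median log2 ratio of the members was -0.51 against 0.07 over these genes. On the log2 scale the distance of this OE/OE mouse from the OE/OE median was -2.13 for Notch4, -1.44 for Notch1, -1.33 for Notch3, -0.89 for Dll1, -0.86 for Notch2 and 0.75 for Jag1. Its endothelial score was 10.3, against 11.7 to 12.7 in the other OE/OE mice and 12.0 in its WT littermate, and 13 of the 14 endothelial markers were lowest in it among OE/OE mice. Summed, these 14 markers had 23610 normalized counts in this mouse, and between 66708 and 98946 in WT mice. The mural score was 7.74, against 8.79 to 9.72 in the other OE/OE mice, the fibroblast score 11.9, against 12.4 to 13.4, and the adipocyte score 6.47, against 7.20 to 8.49. The basal score (13.5) and the pan-epithelial score (14.7) of this mouse lay within the range of the other OE/OE mice. The part of these cell types in the values of pair 4 was not tested.
In pair 1, Notch1, Notch4 and Notch3 had log2 ratios of 0.69, 0.69 and 0.39, and Notch2 of -0.02. Endothelial (12.7 against 11.7), mural (9.58 against 8.82), fibroblast (13.1 against 12.6) and adipocyte scores (8.49 against 7.87) were also higher in its OE/OE mouse. So were pan-epithelial (14.7 against 14.5) and hormone-sensing luminal scores (12.1 against 12.0). Lower there were basal (13.1 against 13.7), luminal progenitor (12.8 against 13.1), macrophage (8.43 against 8.68) and lymphocyte scores (4.84 against 7.25). The part of these scores in the receptor values was not tested. In pair 5 all 4 receptors were higher in the OE/OE mouse, Notch3 by 0.94, Notch1 by 0.78, Notch2 by 0.64 and Notch4 by 0.62 on the log2 scale, while Hey1 was lowest there of all pairs, at -0.94. Endothelial scores of this pair were 11.6 in WT and 11.7 in OE/OE, and mural scores 8.83 and 8.79. Lower in its OE/OE mouse were fibroblast (12.42 against 13.18), luminal progenitor (12.04 against 12.69), macrophage (8.49 against 9.14) and adipocyte scores (7.20 against 7.49). Basal (13.24 against 13.42) and lymphocyte scores (3.43 against 4.11) were lower as well. Pan-epithelial and hormone-sensing luminal scores were higher in it. Pair 5 also differed by gene length. The median log2 ratio of OE/OE over WT was 0.32 over 1512 genes with a transcript of at least 6591 bases, the length of the shortest receptor, and -0.29 over 2669 genes with one under 2000 bases. In the other pairs the difference between long and short genes lay between -0.31, in pair 4, and 0.43, in pair 8. The part of transcript length, or of the marker scores of pair 5, in the receptor values was not tested. Without pair 5 the log2 fold changes of Notch1, Notch2 and Notch3 were -0.03, -0.06 and -0.05.

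**Figure D4:**
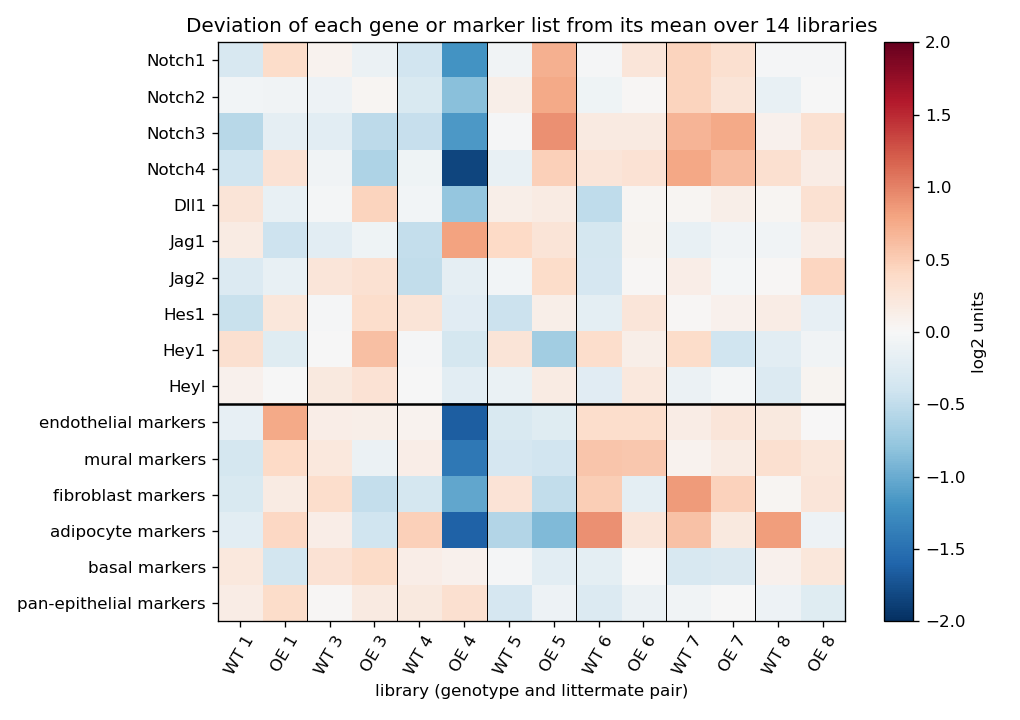
Deviation of each of the 10 genes and of 6 marker list scores from its mean over the 14 libraries, in log2 units (red above, blue below), with libraries ordered by littermate pair. The column of the OE/OE mouse of pair 4 is blue for the receptors, Dll1 and the endothelial, mural, fibroblast and adipocyte markers, and red for Jag1.

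The variance between the 14 libraries was split by pair and genotype, which hold 46.2% and 7.69% of its degrees of freedom (6 and 1 of 13). The pair held 80.6% of the variance for Notch3, 77.3% for Notch2, 68.7% for Jag2, 65.6% for Notch1 and 61.1% for Notch4. The median over 13230 genes was 76.2%. It held 16.0% for Hes1, 27.5% for Jag1, 29.4% for Hey1 and 45.0% for Heyl, all below its share of the degrees of freedom. Genotype held 19.0% of the variance for Hey1, 16.7% for Jag2, 15.3% for Heyl and 14.4% for Hes1, and between 0.32 and 2.13% for the 4 receptors. The median was 1.30% over the same 13230 genes. The pair log2 ratios of Jag2 and Heyl had the smallest SDs of the members, 0.22 and 0.23 (n = 7 pairs), and those of Notch4 the largest, 0.82. The median SD over these genes was 0.31.

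The rest of the pathway was read from a list of 62 genes set up by role, of which 57 were in the table, while Dll3, Hes2, Hes3, Hes5 and Hes7 were not analysed here. Of the 57 genes, 1 was called, beside 3.81% of all genes, and 56 were not. The called gene was Psen2, a catalytic subunit of gamma-secretase, which was lower in OE/OE. It had between 827 and 1366 normalized counts in WT (median 1051) and between 646 and 1182 in OE/OE (median 1044), with overlapping ranges. Psen2 was lower in 5 of 7 pairs, with a log2 fold change of -0.23 (SE 0.10, limma unadjusted p = 0.0487, adjusted p = 1.00, exact sign-flip p = 0.0625), and of -0.16 without pair 4 (limma unadjusted p = 0.105). Rbpj, Nrarp, Dll4 and the glycosylation genes were named after their values were seen.
By role, none of the 5 glycosylation genes (the Fringe genes Lfng, Mfng and Rfng, Pofut1 and Poglut1) passed, with log2 fold changes of -0.08 to 0.14. Among 19 genes of the nuclear complex and its corepressors, 15 had values above 0, all between -0.07 and 0.16, with Rbpj, the DNA-binding partner of the receptors, at 0.06 (95% interval -0.13 to 0.25). The 14 genes of ubiquitination and trafficking held the highest value of the list, that of Neurl1a, a ubiquitin ligase of ligands, at 0.61 (95% interval -0.07 to 1.30, limma unadjusted p = 0.0746), with 27.3 ± 12.6 normalized counts in WT mice and 41.4 ± 17.7 in OE/OE mice (SD, n = 7). The lowest value belonged to Dner, an EGF-repeat protein described as a Notch ligand, at -0.28 (95% interval -1.24 to 0.67) and 17.3 ± 13.5 normalized counts in WT (SD, n = 7). The 6 further target genes in the table had log2 fold changes between -0.16 and 0.00, and Nrarp, a feedback inhibitor induced by Notch, was at -0.03 (95% interval -0.28 to 0.22). Dll4, the Delta-like ligand of endothelium, was at -0.16 (95% interval -0.78 to 0.46) and at 0.13 without pair 4.

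**Figure D5:**
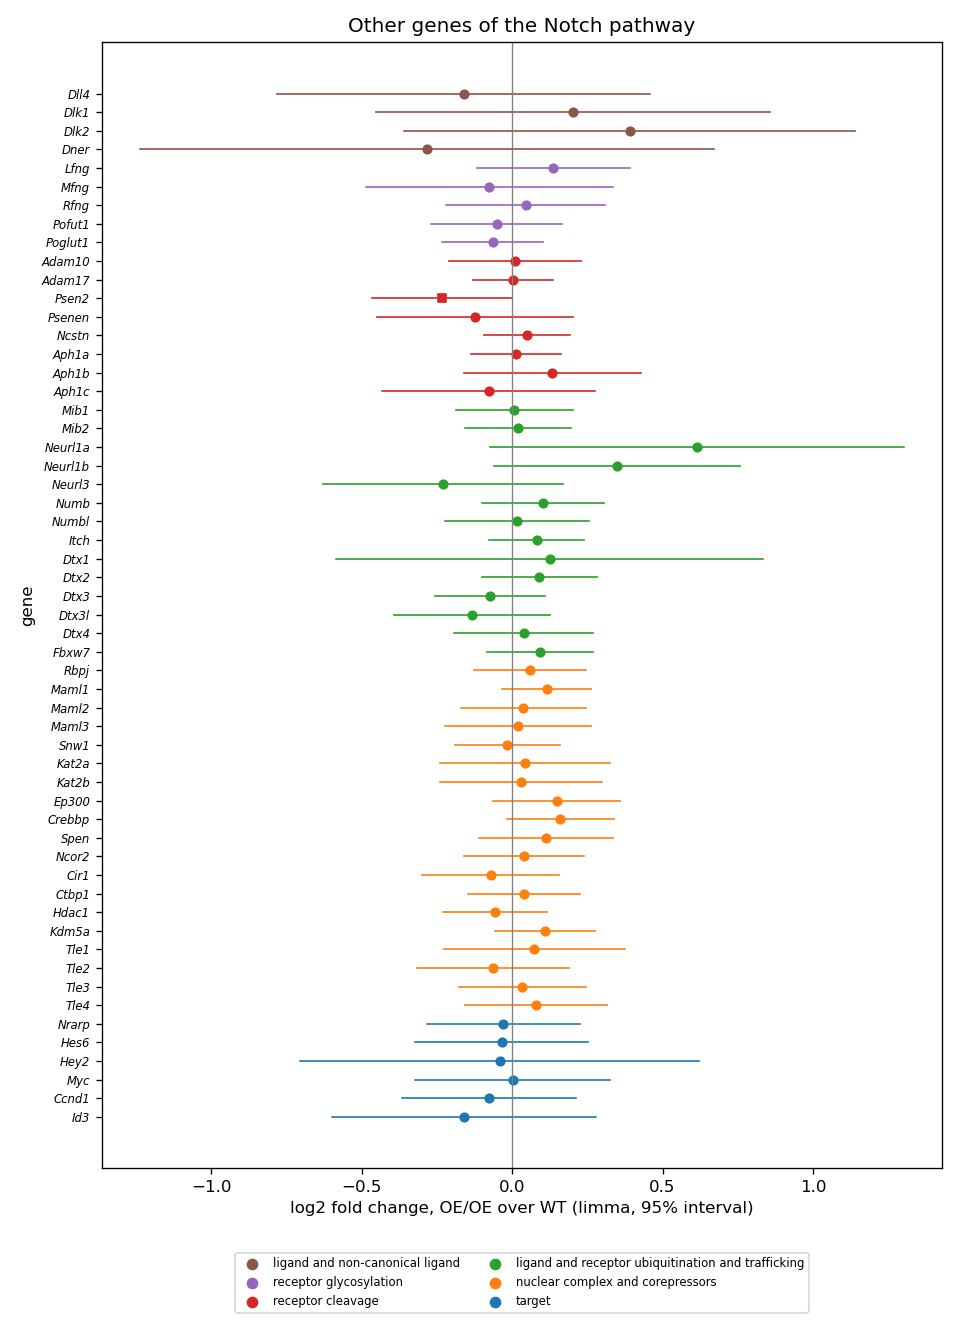
Log2 fold change of OE/OE over WT with its limma 95% interval for 56 of the 57 other Notch pathway genes, coloured by role. Psen2, drawn as a square, is the only gene shown with an unadjusted p of 0.05 or less, and its interval ends just below 0.

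The genes lie on 6 chromosomes of GRCm38 by GENCODE M21. Notch1 (chromosome 2, 26457903 to 26516663, minus strand), Notch2 (chromosome 3, 98013527 to 98150361, plus strand), Notch3 (chromosome 17, 32120820 to 32166852, minus strand) and Dll1 (chromosome 17, 15367354 to 15376872, minus strand) share exonic bases with a gene that is not annotated as protein-coding. The overlap is on the opposite strand for Notch1, Notch3 and Dll1, where it takes 20.5% of the exonic bases of Dll1, 6.03% of those of Notch3 and, over 2 noncoding genes, 7.50 and 2.91% of those of Notch1. For Notch2 it is on the same strand and takes 5.02%. Whether the counting used the strand is not given in the sources used here, so fragments in these parts are uncertain in origin. Notch4 (chromosome 17, 34564268 to 34588503, plus strand), Jag1 (chromosome 2, 137081456 to 137116644, minus strand), Jag2 (chromosome 12, 112907819 to 112929776, minus strand), Hes1 (chromosome 16, 30064384 to 30067796, plus strand), Hey1 (chromosome 3, 8663359 to 8667256, minus strand) and Heyl (chromosome 4, 123233556 to 123249875, plus strand) share no exonic bases with another gene.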

How the data were processed

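Poly(A) RNA of 14 libraries was read in pairs, mapped by the authors to mm10 with TopHat (2.0.10) and counted per GENCODE M21 gene with htseq-count (HTSeq 0.6.0). The authors dropped genes unless 7 or more samples had 10 or more fragments, and divided counts by DESeq (1.18.0) size factors, which makes the deposited values a linear signal (normalized counts). In every library 100% of the values were whole multiples of 1 value (tolerance 0.001), which gave back the fragments and the depth.

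Genotypes were compared with limma 3.58.1 (R 4.3.3, eBayes with trend) on log2(normalized count + 1), which shrinks fold changes of weakly counted genes, with the littermate pair as a block and Benjamini-Hochberg adjustment over all genes. The labels give each mouse a number after the letter p, read here as the pair. That the 7 pairs were matched by litter is stated in the study's methods. Within same-numbered pairs, deviations from the genotype means were correlated across genes (0.17 to 0.75). Mice of different numbers were not compared in this way, so these values do not test the pairing. Single values were tested by exact two-sided sign flips (128 patterns, smallest p 0.0156). Alternatives used edgeR 4.0.16 and DESeq2 1.42.0 on the fragments, other pseudocounts (0.1 and 10), filters and scalings, marker scores as covariates and 1 pair left out. The fit was also run on simulated counts, which held no difference between litters, so this check does not cover the pair block. With the pair as a block, the limma p-values measure the spread of the differences within pairs, as do the sign flips between genotypes. The sign flips between neighbours in level measure the spread between WT mice.

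The members and lists were chosen with earlier results of these data known. Genes were named by rule: Usp22, the members, other pathway genes called or with the largest rise or fall in value, and the 3 genes most alike to each member. Others are said to be named after their values were seen. Some genes are not reported here.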

Additional observations from a re-analysis of the deposited data

Results flagged for a closer look

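The highest and the lowest mouse were compared with the nearest one in each of 20 groups of 7 mice (10 genes, each genotype), on the log2 scale. In 2 groups the gap, as a share of the range, exceeded Dixon's 95% critical value. Chance flags about 1 in 20 groups. The OE/OE mouse of pair 4 had 4021 normalized counts of Notch1, where the nearest OE/OE mouse had 8540, a gap of 0.570 of the range. The WT mouse of pair 6 had 2179 normalized counts of Dll1, where the nearest WT mouse had 2957, a gap of 0.581 of the range.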

How the results depend on the processing

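Of the 230 member log2 fold changes under 23 alternatives each, 199 kept their direction and their side of the threshold of 0.05, 16 changed sign, 9 (all of Jag2) lost the call and 6 gained one in the same direction. No value that changed sign had been called, and 2 of the 16 (Notch4 and Jag1 with the adipocyte score) were called in the new direction. Jag2 was called under 14 of 23 alternatives, with a p between 0.00889 and 0.147. Depth limits little here, since no member had fewer than 203 normalized counts in any library. Where no cause is given, it was not tested.
Without the replicate block, 182 genes were called over all genes, 0 members and 0 other pathway genes. With limma without trend, 653 genes were called over all, 0 members and 0 other pathway genes, and 0 other pathway genes also with median centring (631 over all) and with DESeq2 (626 over all). The adipocyte score as a covariate gave 2745 genes, 4 members (Notch1, Notch4 and Hes1 higher, Jag1 lower) and 6 other pathway genes. The endothelial score gave 1196 genes, 2 members (Jag2 and Hes1) and 2 other pathway genes. The mural score gave 1177, 2 (Jag2 and Hes1) and 2. The fibroblast score gave 326 genes and 0 members. Leaving out 1 pair moved the count over all genes between 381 (without pair 6) and 1366 (without pair 4), with 1196 without pair 1, that of members between 0 and 2 and that of other pathway genes between 0 and 3. Without pairs 1 and 8, which hold the shallowest libraries, an alternative chosen after seeing the data, 874 genes were called over all, 0 members and 0 other pathway genes.
The sign changed for Notch1 without pair 1 (-0.011), without pair 5 (-0.027) and without pairs 1 and 8 (-0.014), and its values with 1 pair left out ran from -0.027 to 0.24. It changed for Notch2 without pair 5 (-0.060 to 0.14 over the pairs left out) and with quantile normalization (-0.015), and for Notch3 without pair 5 (-0.054 to 0.22). For Notch4 it changed without pair 4 (-0.33 to 0.078) and with the adipocyte (0.38), fibroblast (0.062) or mural (0.0011) score. For Dll1 it changed without pair 3 or pair 6 (-0.041 to 0.17), with quantile normalization (-0.0091) and with the fibroblast score (-0.043). For Jag1 it changed with the adipocyte (-0.22) and fibroblast (-0.012) scores.
Of the 9 neighbours in the order of levels, 5 differed at an exact p of 0.05 or less, and 4 or 5 when a WT mouse was left out. Of the 10 marker lists, 0 differed between genotypes by exact sign flips, and 0 to 1 when a pair was left out.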

Other observations

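For each member, the 3 genes with the most similar counts over the 14 libraries were sought among the other genes with a mean of at least 50 normalized counts (13229 candidates). The measure was Pearson's r on the log2 scale, with Spearman's rho beside it. These genes were picked as the highest of many, so the values carry no test, and littermates share a litter. Notch3 had the closest companions, Megf9, Arhgef18 and Myo1d, with r of 0.98 each (rho 0.96, 0.99 and 0.96) and 0.97 each without pair 4. Notch4 was followed by Ntrk2, Zeb1 and Adamtsl1 (r 0.98 each, 0.95, 0.97 and 0.95 without pair 4). Notch1 was followed by Il6st, a cytokine receptor subunit, Nuak1 and Cpeb2 (r 0.97, 0.96 and 0.96). Notch2 was followed by Arhgap23 and by Per1, a clock gene (r 0.96 each).

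The ligands were less closely matched. Jag1 was followed by Brap, Tlk2 and Zfp260 (r 0.94, 0.94 and 0.94), Dll1 by Atp6v1a, Taf4b and Gpr3 (r 0.91, 0.91 and 0.89), and Jag2 by Ptprt, Pcdh18 and Frrs1 (r 0.85, 0.82 and 0.82). Among the targets, Heyl was followed by Fzd7, a Wnt receptor, with r of 0.94 (rho 0.96), then by Klhl6 and Camta1 (0.86 and 0.84). Hes1 was followed by Wfikkn2, Tmed10-ps and Gtf2a1 (r 0.87, 0.86 and 0.83), of which Tmed10-ps is named as a pseudogene, so its counts are uncertain. Hey1 was followed by Ache, Cd68, a macrophage marker, and Chst1 (r 0.84, 0.80 and 0.76).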
